A study of Mus musculus with 3 samples.

Results

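The metastatic HI-Panc line was compared with the localized HI-Panc line by RNA-seq, 1 library each, which is 2 of the 3 libraries of the series. Both are mouse (Mus musculus) pancreatic tumour cell lines derived from transgenic mice whose label gives a p16-/- genotype and a further engineered allele that is not reported here. The metastatic line carries the tissue label liver, and the localized line carries the tissue label body wall. The localized stage thus carries a tissue label other than pancreas while the invasive stage carries pancreatic tissue. Groups follow the stage label, and if a tissue label or library was exchanged between the localized and the invasive line, every value against the localized line would change its meaning; this was not tested. The third library, from the invasive line of the same model (tissue label pancreatic tissue), is used to see which differences it shares. The culture medium of all 3 was DMEM containing 10% fetal bovine serum, and according to the series text they arose without immortalization. The treatment text is the same for all 3 and describes cobalt chloride at 100 ng/ml for 24 h as a model of hypoxia, so the libraries share it wherever it was applied. No untreated partner was analysed here, so a difference in the response to cobalt and a difference already present without it cannot be told apart. Each stage is 1 line, and the labels do not say how many animals or clones it came from.

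Cells meet damage, poor nutrition and lack of oxygen with a few transcription programmes. Amino acid shortage and misfolded protein raise translation of the factor ATF4, which switches on amino acid synthesis, amino acid import and tRNA charging. HSF1 drives chaperone genes after heat, NRF2 drives antioxidant and glutathione enzymes, MTF1 drives metallothioneins, and HIF-1 drives glycolysis and angiogenic factors when oxygen is low. Cobalt blocks the prolyl hydroxylases that mark HIF-1 for destruction, and cobalt and other metals are also known to stress the redox and metal systems. Pancreatic tumours are poorly perfused, and these programmes are known to be active in them.

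Values are FPKM (fragments scaled to transcript length and library size), and 3 values in a row are in the order localized, invasive, metastatic unless stated. A difference is a difference of log2(FPKM + 1); for genes of low level it is smaller than the true fold. Genes were counted where their FPKM averaged at least 1 across the libraries, which 11404 of 22734 genes did, and "past 2-fold" means a difference of at least 1 on that scale. With 1 library a line (n = 1) no difference has a replicate check, no test was made and no p-value is given. Every "higher" or "lower" below therefore compares these libraries and not the stages. The libraries summed to between 565009 and 575244 FPKM, and 11112 to 11219 genes reached 1 FPKM in each. Depths estimated from the steps of low values were 46000000, 41000000 and 44000000 fragments. At these depths 3 fragments of a transcript of 2000 bases came to 0.036 to 0.041 FPKM, so printed values near or below that range rest on few fragments and are at or near 0. In bulk RNA, fewer cells of a type and less RNA per cell cannot be told apart.

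Marker genes of cell types were read beside the tissue labels. The libraries are of cell lines, so these values cannot show whether a tissue label is right or exchanged. None of 12 hepatocyte markers, Alb among them, reached 1 FPKM in any library, and their sum was 0.768, 1.22 and 0.812 FPKM, so these markers were near or at 0 in the metastatic library, which is labelled liver. Of 12 pancreatic acinar and endocrine markers none reached 1 FPKM in the metastatic library, and 1, Cela1, did so in the localized library (7.24 FPKM). Of 12 muscle markers, Acta2 was the highest in the localized library (16.3, 4.76 and 0.461 FPKM), and Mylpf was the other past the filter (1.37, 1.14 and 1.24 FPKM). Of 12 leukocyte markers, 6 were listed at 0 in the metastatic library and 2, Cd14 and Cd68, reached 1 FPKM in each library, and of 10 endothelial markers none reached 1 FPKM there. The 3 mesothelial markers counted were all past 2-fold higher in the metastatic than in the localized library. They were Msln (106, 291 and 409 FPKM) and Krt8 and Krt18, which are on the epithelial list too. The fibroblast markers summed to 589.5, 90.5 and 14.0 FPKM over 13 genes, and the epithelial markers to 1197, 6318 and 6822 FPKM over 15 genes. In the metastatic library Krt7, Krt8, Krt18 and Krt19 (1077, 2247, 977 and 2365 FPKM) made up most of the epithelial sum. Of the 15 epithelial markers, 4, 11 and 9 reached 1 FPKM, so by number the invasive library had more than the metastatic one. All 8 fibroblast markers counted were lower and all 9 epithelial markers counted were higher in the metastatic than in the localized library. Even so, Epcam was at 2.63 FPKM in the metastatic library and other defining epithelial genes were near 0 there, with Esrp1 at 0.0061, Grhl2 at 0.096 and Cldn4 at 0.014 FPKM, and the mesenchymal filament gene Vim stood at 1853 FPKM. These marker sums move with the metastatic against localized contrast, and their part in the differences below was not tested.

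Between the metastatic and the localized library 1035 genes (9.08% of those counted) were past 2-fold higher and 831 (7.29%) were past 2-fold lower in the metastatic library, 16.4% in all. The median difference over all genes was 0.00. Against the localized library, 8.78% of genes were higher and 6.07% lower in the invasive one, 14.8% in all. Between the metastatic and the invasive library the shares were 1.33% and 1.67%, 3.01% in all. The first 2 of these comparisons share the localized library. The stress genes came from 19 lists with 545 genes in the table, of which 498 were counted. Of these, 47 (9.44%) were past 2-fold higher and 36 (7.23%) past 2-fold lower in the metastatic library, together 16.7%, beside 16.4% of all genes. Their median difference was 0.07, and 332 were within 1.5-fold, as were 7981 of all 11404 genes. Stress genes as a whole therefore differed between the 2 libraries about as often as other genes did. Each list count below is to be read beside the shares of all genes, 9.08% higher and 7.29% lower.

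**Figure D1:**
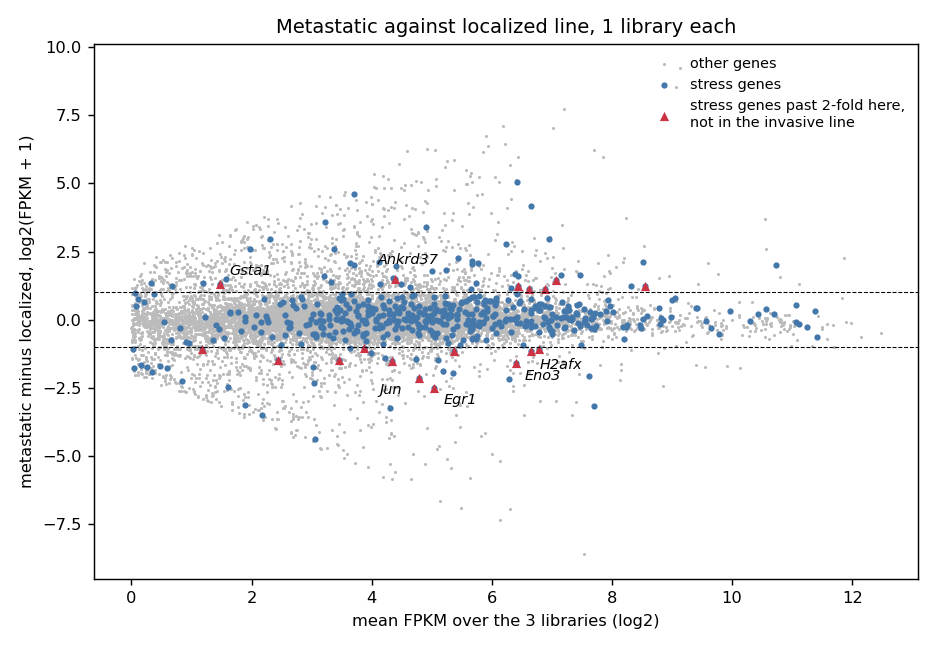
Difference between the metastatic and the localized library in log2(FPKM + 1) (vertical axis) against the mean FPKM over the 3 libraries on a log2 scale (horizontal axis), 1 point per gene counted. Grey points are other genes, blue points the stress genes, red triangles the 18 stress genes past 2-fold here and not in the invasive library, and dashed lines mark 2-fold; the stress genes spread over both sides, with 47 above the upper and 36 below the lower line.

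Of the 83 stress genes past 2-fold, 65 were also past 2-fold in the same direction in the invasive library and 18 (21.7%) were not. Over all genes the same share was 24.5% (457 of 1866), so the stress genes shared their differences with the invasive line about as often as other genes. The 18 were made up of 11 genes lower and 7 higher in the metastatic library. In 16 of the 18 the invasive library lay on the same side of the localized one, and in 13 it lay between 1.5-fold and 2-fold. The same counts were not made over the 457 genes, and both differences share the localized library. These counts therefore only describe the 18. In 4 genes, Eno3, H2afx, Npc2 and Gsta1, the invasive library was within 1.5-fold of the localized one. In 1 gene, Egr1, it was past 2-fold in the opposite direction. Sod1, Gsr and Slc7a11 were closest to the boundary, with invasive differences of 0.98, 0.98 and -0.98. With a pseudocount of 0.1 in place of 1, Slc7a11 and Nr4a1 were no longer among the genes not shared. A stricter count, which also asked for 2-fold between the metastatic and the invasive library, left 5 genes (6.02% of the 83, beside 6.43% of all genes past 2-fold): Egr1, Jun, Eno3, H2afx and Gsta1. Which genes count as not shared depends on the boundary: with 1.5-fold for both comparisons 5 of the 18 (Egr1, Eno3, Gsta1, H2afx and Npc2) were still not shared, and with 3-fold 3 of them (Egr1, Jun and Eno3).

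**Figure D2:**
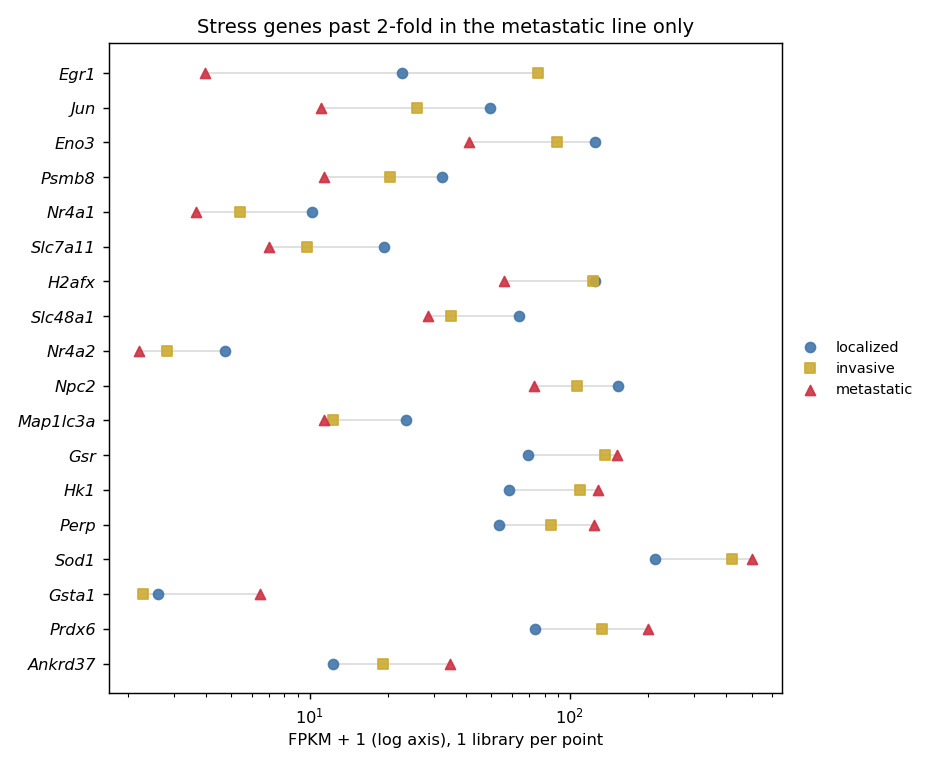
Level of each of the 18 stress genes past 2-fold in the metastatic against the localized library and not in the invasive library, as FPKM + 1 on a log axis, 1 library per point (circle localized, square invasive, triangle metastatic). For most genes the invasive square lies between the other 2 symbols; for Egr1, and by a small distance for Gsta1, it lies beyond the localized circle on the far side from the metastatic triangle, and for H2afx it covers the localized circle.

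The immediate early genes, transcription factors induced within minutes by growth factors and stress, gave the largest of these differences. Egr1, a zinc finger factor of this class (GRCm38 chromosome 18, 34861207 to 34864956), had 21.7, 74.4 and 2.96 FPKM. The metastatic library was the lowest and the invasive library the highest of the 3, with differences from the localized library of -2.52 and 1.74. By the estimated fragment numbers, 458 in the metastatic against 3539 in the localized library, the metastatic over localized ratio was 0.137 (95% exact binomial counting interval 0.124 to 0.151). Such intervals cover counting error only. They rest on the estimated depths, on an annotated transcript length for each gene and on an assumed fragment length of 200 bases. Jun, a subunit of the AP-1 dimer (chromosome 4, 95049036 to 95052222), had 48.3, 24.9 and 10.1 FPKM and a metastatic over localized ratio of 0.209 (0.197 to 0.222), with the invasive library in between. The nuclear receptors Nr4a1, with 9.25, 4.42 and 2.67 FPKM, and Nr4a2, with 3.71, 1.84 and 1.21 FPKM, had that order too. Fosl1, a Fos relative, was lower in both other libraries (20.4, 7.55 and 9.44 FPKM). Of 22 immediate early genes counted, 5 were past 2-fold lower in the metastatic library and 2 higher, with a median of -0.07. Over all genes counted, 7.29% were lower and 9.08% higher. The 2 higher were Fos (1.15, 47.1 and 4.39 FPKM) and Ier3 (143, 469 and 339 FPKM), a survival gene. Fos thus stood far above the localized level in the invasive library and much nearer to it in the metastatic one, and Jun and Fos, partners in AP-1, had different orders across the 3 libraries. Junb (93.7, 182 and 109 FPKM) and Jund (64.7, 90.6 and 88.6 FPKM), the other Jun proteins, were within 2-fold in the metastatic library. None of the 19 promoters matched for this list held the AP-1 letters TGANTCA, which 7.81% of all 32851 promoters hold.

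The antioxidant genes were the largest stress list and stood on both sides of the localized level. Of 43 counted, 7 were past 2-fold higher and 5 lower in the metastatic library, beside 9.08% and 7.29% of all genes. The median of the list was -0.01. Their upstream factors were close, with 147, 214 and 194 FPKM for Nfe2l2, which encodes NRF2, and 31.2, 27.01 and 24.97 FPKM for Keap1, its inhibitor. Lower in the metastatic library were Nqo1, a quinone reductase (182, 13.4 and 38.7 FPKM), Hmox1, which breaks down haem (84.9, 16.8 and 20.9 FPKM), and Slc48a1, a haem transporter (62.8, 33.99 and 27.6 FPKM). For Nqo1 and Hmox1 the invasive library was lower still. Higher in the metastatic library were 3 abundant enzymes that the invasive library did not carry past 2-fold. Sod1, the cytosolic superoxide dismutase (chromosome 16, 90220762 to 90226333), had 212, 419 and 499 FPKM and a metastatic over localized ratio of 2.36 (2.27 to 2.44). Prdx6, a peroxiredoxin that reduces lipid peroxides (chromosome 1, 161240112 to 161251210), had 72.5, 132 and 199 FPKM and a ratio of 2.74 (2.66 to 2.84). Gsr, glutathione reductase, had 67.9, 135 and 150.3 FPKM. All 3 were lowest in the localized and highest in the metastatic library, and in linear FPKM Sod1 had the widest gap of the 18. The glutathione transferase Gsta4 (128, 406 and 559 FPKM), the conjugate exporter Abcc3 (3.54, 38.8 and 47.05 FPKM) and the peroxidase Gpx2 (0.025, 6.67 and 5.13 FPKM) were past 2-fold higher in both. Gsta1 was at 1.604, 1.28 and 5.47 FPKM, while its relative Gsta2 was lower in the metastatic library (3.496, 0.144 and 0.1702 FPKM). Gsta1 and Gsta2 are near-identical copies, so how reads were split between them is uncertain and both values are too. Prdx1 (1118, 742 and 780.2 FPKM) and Txnrd1 (83.2, 79.7 and 84.9 FPKM), textbook NRF2 targets, were within 2-fold. The ARE core TGANNNNGC was present in 23 of 46 promoters matched for this list, beside 41.3% of all promoters, a short motif that many promoters hold.

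Slc7a11, the cystine importer that feeds glutathione synthesis and a target of both NRF2 and ATF4, had 18.3, 8.76 and 5.95 FPKM and a metastatic over localized ratio of 0.325 (0.306 to 0.345). It stood lower in the metastatic library, while the ATF4 target Asns, asparagine synthetase (26, 66.3 and 58.1 FPKM), stood higher. Both promoters hold the CARE letters TGATGNAA, to which ATF4 heterodimers are known to bind, within the 250 bases before the RefSeq start (GRCm38.p6). The 2 stretches are shown because they share the element while the genes differed in opposite directions. Capitals mark each match on either strand, and both genes lie on the minus strand, written 5′ to 3′ in the direction of transcription. Asns is at chr6:7693210-7693257 and Slc7a11 at chr3:50443628-50443704, where there are 2 matches, 1 on each strand.
Asns: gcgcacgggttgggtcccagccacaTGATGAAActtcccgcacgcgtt
Slc7a11: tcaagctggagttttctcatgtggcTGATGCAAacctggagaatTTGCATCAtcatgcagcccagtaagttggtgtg
The element was found in 3.97% of all promoters, in 6 of 28 promoters of the integrated stress response list, in 3 of 16 of the amino acid synthesis list, in 5 of 13 of the tRNA synthetases and in 4 of 19 of the amino acid transporters. A match is a description of the sequence and does not show binding.

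Of 23 integrated stress response genes counted, 3 were past 2-fold higher and 0 lower in the metastatic library, with a median of 0.25. Over all genes counted, 9.08% were higher and 7.29% lower. The 3 were Ddit4, an inhibitor of mTORC1 (39.2, 110.1 and 89.1 FPKM), Stc2, a secreted glycoprotein (17.8, 79.4 and 128 FPKM), and Gdf15, a secreted stress hormone (12.9, 51.05 and 65.5 FPKM), and the invasive library shared each of them. Stc2 and Gdf15 were highest in the metastatic library and Ddit4 in the invasive one. The factors themselves were within 2-fold, with 119, 178 and 147 FPKM for Atf4, 34.6, 25.1 and 23.3 for Ddit3 (CHOP) and 5.22, 6.52 and 5.97 for Atf3. Trib3, an ATF4 target that feeds back on it, had 9.004, 10.04 and 5.91 FPKM. All 21 cytosolic tRNA synthetase genes were within 2-fold, with a median of 0.26, and Tars was the farthest out (36.97, 53.95 and 65.9 FPKM). In the serine and amino acid synthesis list 2 of 20 were higher, Asns and the glutamine synthetase Glul (14.4, 74.2 and 63.3 FPKM), whereas Phgdh (145, 186 and 173 FPKM) and Psat1 (121, 119 and 107 FPKM), which make serine, were within 2-fold. Among 14 amino acid transporters, Slc7a7 (3.099, 17.7 and 16.4 FPKM) and Slc36a1 (2.93, 13.96 and 10.96 FPKM) were higher and Slc7a11 lower.

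Genes of protein folding were mostly within 2-fold. Of 33 genes for folding and degradation in the endoplasmic reticulum (ER), 2 were past 2-fold higher and 0 lower, beside 9.08% and 7.29% of all genes, with a median of 0.23. These were Herpud1, a membrane factor of ER-associated degradation (58.6, 184 and 186 FPKM), and the oxidase Ero1l (64.6, 263 and 203 FPKM), while the main ER chaperone Hspa5 was within 2-fold (348, 425 and 379.6 FPKM). The ER stress element was in 8 of 25 promoters of this list, beside 0.119% of all promoters, and the promoter matched for a gene past 2-fold did not hold it. Of 26 heat shock genes, 1 was higher and 2 were lower, to be read against the same shares of all genes, with a median of -0.05. The higher 1 was Hspb1, the small chaperone HSP27, with 29.04, 140.1 and 90.8 FPKM, and the invasive library was the highest. The lower 2 were Serpinh1, a collagen chaperone (389, 111 and 91.2 FPKM), and Hspb8 (2.21, 0.342 and 0.521 FPKM), both shared with the invasive library. The heat-inducible Hspa1a (3.43, 3.98 and 3.69 FPKM) and Hspa1b (9.78, 14.01 and 13.4 FPKM), near-identical genes whose reads may be split between them, were within 2-fold, as was Hsf1 (19.3, 21.3 and 24.3 FPKM). The heat shock element GAANNTTC was in 12 of 26 promoters of the list, beside 7.86% of all promoters. The Hspb1 stretch is shown because it is the heat shock gene that was higher and its promoter has 2 copies (chr5:135887777-135887854, plus strand, GRCm38.p6, RefSeq; capitals mark the element).
Hspb1: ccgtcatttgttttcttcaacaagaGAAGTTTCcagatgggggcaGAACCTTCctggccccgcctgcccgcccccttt
Of 37 proteasome and ubiquitin genes, 36 were within 2-fold and the median was 0.01. The exception, Psmb8, an interferon-inducible immunoproteasome subunit (chromosome 17, 34198195 to 34201454), had 31.2, 19.4 and 10.4 FPKM and a metastatic over localized ratio of 0.332 (0.304 to 0.363). The other inducible subunits Psmb9 (13.4, 16.03 and 11.5 FPKM) and Psmb10 (23.5, 46.3 and 31.4 FPKM) were within 2-fold. Beside this, 24 of 31 interferon response genes were past 2-fold lower in the metastatic than in the localized library, as were 7.29% of all genes. In the invasive library 21 of the 31 were past 2-fold lower than in the localized one, as were 6.07% of all genes. The part of these genes in the level of Psmb8 was not tested.

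Metal-handling genes stood on both sides. The metallothioneins Mt1 (602, 622 and 802 FPKM) and Mt2 (464, 398 and 489 FPKM), which bind zinc and copper, were abundant and within 2-fold, and the brain-type Mt3 was lower in both other libraries (3.78, 0.339 and 0.385 FPKM). Slc39a4, the zinc importer of the gut (ZIP4), had 7.25, 147 and 148 FPKM, so the metastatic and invasive libraries were nearly level and the localized one far below them. The copper exporter Atp7b had 0.251, 5.88 and 8.701 FPKM. Slc30a4, a zinc exporter (45.3, 18.4 and 15.9 FPKM), and Steap4, a metalloreductase (2.77, 0.409 and 0.179 FPKM), were lower in the metastatic library. Of 23 genes in the list, 2 were past 2-fold higher and 3 lower, beside 9.08% and 7.29% of all genes, with a median of 0.41. The iron store subunit Fth1 had 3869, 1795 and 2489 FPKM, within 2-fold in the metastatic library and past 2-fold lower in the invasive one. The short element TGCNCNC to which MTF1 binds was in 18 of 25 promoters of the list, beside 51.0% of all promoters.

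Genes of the hypoxia response were split in both directions. Of 33 hypoxia genes outside glycolysis, 5 were past 2-fold higher and 4 lower in the metastatic library, beside 9.08% and 7.29% of all genes. The median of the list was 0.32. Hif1a itself was within 2-fold (43.4, 49.8 and 69.3 FPKM), and so was Vegfa, the angiogenic factor (40.6, 57.6 and 46.9 FPKM). Epas1, which encodes HIF-2alpha, was past 2-fold higher at a low level (0.325, 2.39 and 2.08 FPKM), and Arnt2, which encodes a partner of the HIF subunits, was past 2-fold lower (2.98, 0.436 and 0.199 FPKM), both shared with the invasive library. Egln3, a prolyl hydroxylase and HIF target, had 24.2, 152 and 195 FPKM. Adm, the vasodilator adrenomedullin, had 2.58, 8.03 and 20.6 FPKM and was also past 2-fold above the invasive library. Bhlhe40, a repressor of the circadian family, had 17.6, 67.9 and 77.7 FPKM, while its close relative Bhlhe41 was lower in both other libraries (25.4, 11.7 and 10.4 FPKM). Car9, the membrane carbonic anhydrase used as a hypoxia marker, had 48.1, 7.23 and 4.15 FPKM, so this HIF target was lowest where Egln3 and Adm were highest. Angptl4, a lipase inhibitor, was lower as well (57.9, 25.3 and 20.1 FPKM). Ankrd37, a small ankyrin repeat gene, was the 1 hypoxia gene that the invasive library did not share, with 11.3, 18.2 and 33.6 FPKM and a metastatic over localized ratio of 2.98 (2.65 to 3.36). The HRE core ACGTG was in 18 of 34 promoters of the list, beside 19.6% of all promoters. Ankrd37 (chr8:45999851-45999881, minus strand) and Car9 (chr4:43506983-43507025, plus strand) are shown because both hold the core close to the RefSeq start (GRCm38.p6) and stood on opposite sides of the localized level. Capitals mark the core, which in Car9 is on the other strand.
Ankrd37: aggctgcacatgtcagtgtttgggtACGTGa
Car9: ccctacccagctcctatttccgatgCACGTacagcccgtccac

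**Figure D3:**
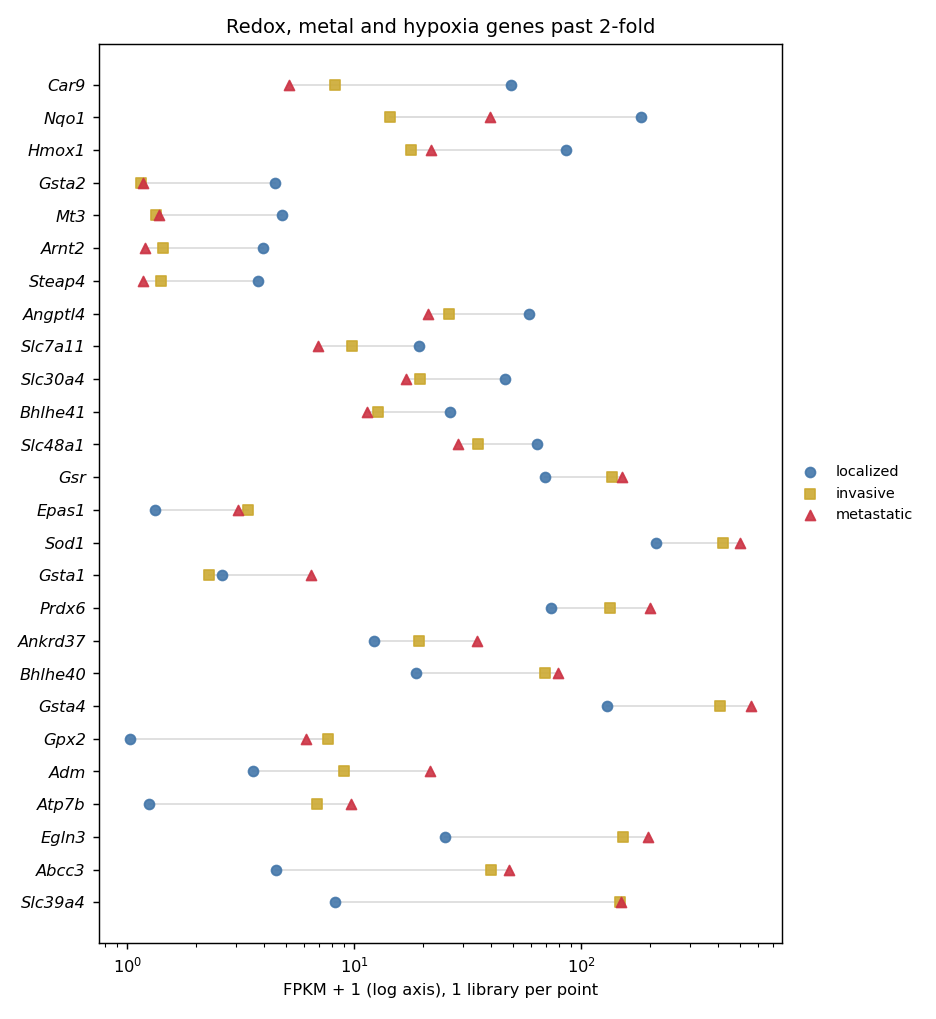
Level of every antioxidant, metal-handling and hypoxia gene past 2-fold in the metastatic against the localized library, as FPKM + 1 on a log axis, 1 library per point, ordered by the difference. Car9, with 4.15 FPKM in the metastatic and 48.1 in the localized library, is at the top and Slc39a4, with 148 and 7.25 FPKM, at the bottom; in most rows the invasive square is close to the metastatic triangle.

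Glycolytic isoenzymes stood on both sides. Of 29 genes counted, 4 were past 2-fold higher and 4 lower, beside 9.08% and 7.29% of all genes, with a median of 0.31. Among the hexokinases, which trap glucose in the cell, Hk2 (15.9, 63.2 and 74.2 FPKM) was higher in both other libraries, and Hk1 (57.3, 109 and 127 FPKM) was past 2-fold in the metastatic library alone, with a ratio of 2.22 (2.17 to 2.27). Both hexokinases were thus higher. The enolases Eno2 (10.2, 0.692 and 0.272 FPKM) and Eno3 (124, 88.1 and 40.1 FPKM), the neuronal and muscle forms, were lower, and Eno3 (chromosome 11, 70653125 to 70662513) was close to the localized level in the invasive library. Its metastatic over localized ratio was 0.323 (0.308 to 0.339). Ldhb, the lactate dehydrogenase subunit of the heart, had 12.6, 0.852 and 0.207 FPKM. Pfkfb3, which makes the activator of phosphofructokinase, was higher (4.89, 11.4 and 22.9 FPKM), as was the aldolase Aldoc (4.84, 22.97 and 24.4 FPKM). Pdk4, a kinase that shuts off pyruvate dehydrogenase, was lower (4.95, 0.207 and 0.246 FPKM). The glucose transporter Slc2a1 was within 2-fold (94.2, 103 and 139.8 FPKM). The HRE core was in 5 of the 7 promoters of the 4 higher genes and in 0 of the 4 promoters of the lower genes, with 21 of 48 for the whole list. In the hypoxia list the core was in 2 of 3 promoters matched for the higher genes and in 2 of 3 matched for the lower genes. These promoter counts are small and were not tested.

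Among p53 target genes 4 of 31 were past 2-fold higher and 2 lower, beside 9.08% and 7.29% of all genes, with a median of -0.01. Cdkn1a, the p21 cell cycle inhibitor (108, 116 and 150.1 FPKM), and Mdm2, the ligase that degrades p53 (51.7, 30.1 and 40.3 FPKM), were within 2-fold. Btg2, an antiproliferative gene (5.103, 35.4 and 22.96 FPKM), and Pmaip1, the pro-apoptotic protein Noxa (10.2, 48.6 and 37.6 FPKM), were higher in both other libraries. Perp, a desmosomal p53 target, had 52.4, 84.01 and 123 FPKM and was past 2-fold in the metastatic library alone, with a ratio of 2.35 (2.27 to 2.44); Perp is also an epithelial gene, and the epithelial markers were higher too; their part in its level was not tested. The death receptors Fas (17.2, 2.58 and 4.504 FPKM) and Eda2r (7.94, 0.5597 and 0.616 FPKM) were lower. Of 29 Bcl2 and caspase genes, 4 were higher and 0 lower, to be read against the same shares of all genes, with a median of 0.03. Casp1, the inflammasome protease, had 0.361, 12.1 and 15.5 FPKM and Casp8, the initiator caspase of death receptors, 12.1, 34.1 and 28.9 FPKM. Of 24 growth arrest and stress kinase genes, Map2k6, a p38 kinase activator, was higher (11.9, 57.1 and 44.3 FPKM), and the growth arrest genes Gadd45b (18.05, 3.86 and 2.77 FPKM) and Gadd45g (30.9, 14.2 and 10.9 FPKM) were lower. Their relative Gadd45a was high in the invasive library (9.0, 20.2 and 8.098 FPKM).

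Of 28 DNA damage genes 27 were within 2-fold, and the median was -0.24. The exception was H2afx, the histone variant that is phosphorylated at DNA breaks, with 124, 122 and 55.1 FPKM, so the invasive and localized libraries were level and the metastatic one was lower by a difference of -1.16. Of 16 histone genes counted (a list chosen after its values were seen, H2afx included), 8 were past 2-fold lower, and their part in this value was not tested. Of 33 autophagy and lysosome genes, Npc1 (10.3, 30.4 and 26.9 FPKM) and Npc2 (152, 106 and 72.1 FPKM), which hand cholesterol out of the lysosome as partners, lay on opposite sides. Tfeb, a factor that drives lysosomal genes, was higher (4.53, 12.3 and 13.4 FPKM), and Map1lc3a, an autophagosome protein, was lower (22.5, 11.3 and 10.3 FPKM). Of 19 mitochondrial stress genes only the uncoupling protein Ucp2 was past 2-fold (32.8, 111 and 106 FPKM). The senescence list, which mixes cell cycle inhibitors with secreted factors, held the largest share of genes past 2-fold of the 19 lists. Of its 24 genes 6 were higher and 5 lower, beside 9.08% and 7.29% of all genes, with a median of 0.36. Among its secreted factors Ccl20 (3.35, 108 and 145 FPKM) and Cxcl5 (533, 2399 and 2161 FPKM), which attract leukocytes, were higher. The monocyte attractant Ccl2 (417, 162 and 44.96 FPKM), the cytokine Il6 (3.04, 0.909 and 0.253 FPKM) and the matrix protease Mmp3 (24.1, 0.733 and 0.213 FPKM) were lower. Of its inhibitors, Cdkn2c (p18) was lower (72.7, 17.8 and 18.7 FPKM), and Cdkn2a, the gene of the p16-/- label, had 15.4 FPKM in the invasive and 23.6 FPKM in the metastatic library and was listed at 0 in the localized one. The value covers the whole gene and does not check the engineered allele.

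**Figure D4:**
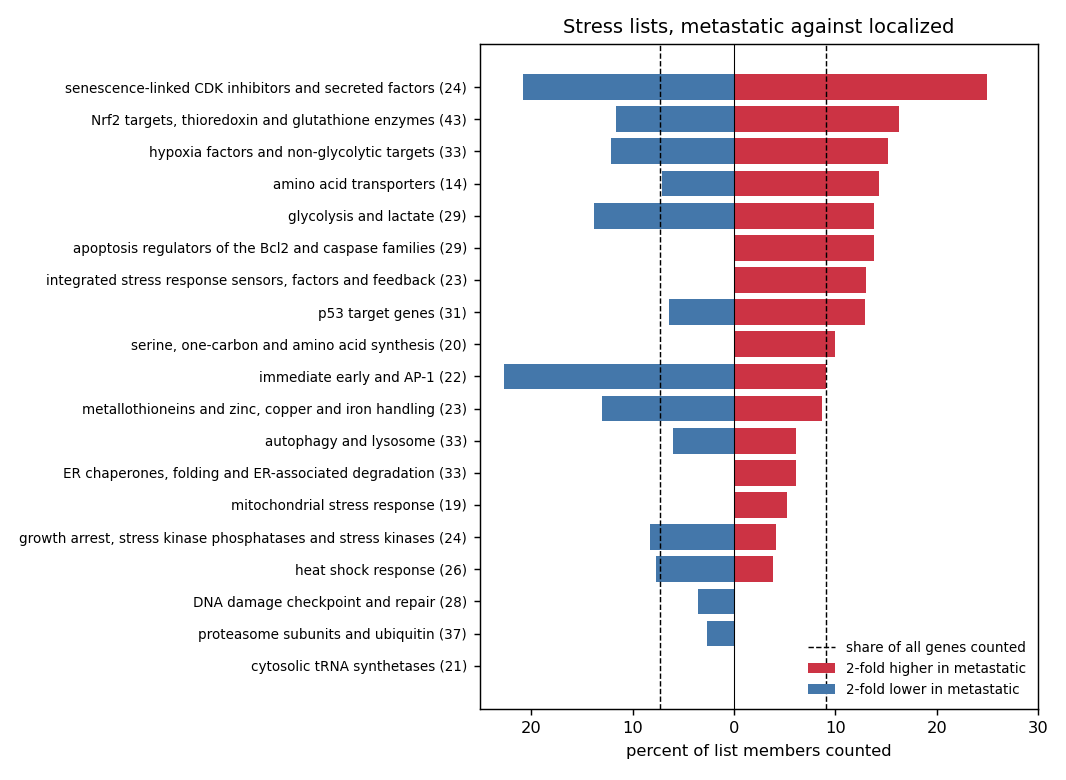
Percent of the counted members of each of the 19 stress lists that were past 2-fold higher (right, red) or lower (left, blue) in the metastatic against the localized library, with the number counted in brackets. Dashed lines show the share of all genes, 9.08% higher and 7.29% lower; the senescence list reaches farthest to the right, immediate early genes farthest to the left, and tRNA synthetases have no bar.

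The converse was also counted. In the invasive library 89 stress genes were past 2-fold of the localized one. Of these, 24 (27.0%) were not past it in that direction in the metastatic library. The same share over all 1693 genes past 2-fold in the invasive library was 16.8%. Ier2, an immediate early gene (29.2, 167 and 28.01 FPKM), Dusp1, a phosphatase of stress kinases (11.5, 33.8 and 13.3 FPKM), and Zfp36, which destabilises cytokine mRNA (9.04, 21.9 and 10 FPKM), were near the localized level in the metastatic library. So were Psme1, a proteasome activator (103, 229 and 133 FPKM), and Lcn2, an iron-binding secreted protein (114, 472 and 163 FPKM). Chac1, which degrades glutathione under amino acid stress, had 5.14, 18.1 and 10.9 FPKM. Between the metastatic and the invasive library themselves, 3 stress genes were past 2-fold higher (Nqo1, Adm and Gsta1) and 11 lower. The 11 were Egr1, Fos, Ier2, Jun, Zfp36, Dusp1, Gadd45a, Ccl2, Lcn2, Eno3 and H2afx, of which the first 5 are on the immediate early list.

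Beyond stress genes, 7859 named genes were within 1.5-fold of the localized library in the invasive one, and 65 of these were past 2-fold higher and 65 past 2-fold lower in the metastatic library. Over all genes counted, 9.08% were higher and 7.29% lower. Both differences share the localized library, so the selection itself limits these 2 counts, and they are a description only. Among the lower were Bcat1, which breaks down branched-chain amino acids (7.97, 7.27 and 1.24 FPKM), and Plxnb1, a semaphorin receptor (4.505, 6.67 and 0.609 FPKM). Glp1r, the receptor for the incretin GLP-1 (4.82, 5.67 and 0.778 FPKM), and Crip1, a LIM protein (1086, 839 and 322 FPKM), were lower too. In each of these genes the localized and invasive values were within 1.5-fold on the log2(FPKM + 1) scale and the metastatic value stood apart. Higher in the metastatic library were Cldn6, an embryonic claudin (1.53, 0.914 and 16.5 FPKM), Hdac9, a class IIa histone deacetylase (0.738, 0.915 and 9.95 FPKM), and Syt7, a calcium sensor of exocytosis (1.45, 2.14 and 11.04 FPKM). The tetraspanin Tspan12 (1.29, 1.57 and 8.92 FPKM) and the sodium-proton exchanger Slc9a2 (6.29, 6.88 and 23.8 FPKM) were higher as well. For Cldn6 the ratio was 10.7 (8.60 to 13.5). Hoxa13, a homeobox gene of the distal limb and hindgut, had 0.086 FPKM in the invasive and 5.45 FPKM in the metastatic library and was listed at 0 in the localized one. Eif3j1 had 5.94, 6.88 and 0.035 FPKM, but its near-identical copy Eif3j2 had 24.6, 24.8 and 31.6 FPKM, so reads may have been assigned to the other copy and the difference is uncertain. In the same way Amd1 had 5.17, 2.91 and 0.010 FPKM beside 46.5, 56.5 and 55.8 FPKM for its copy Amd2 (chosen after their values were seen).

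**Figure D5:**
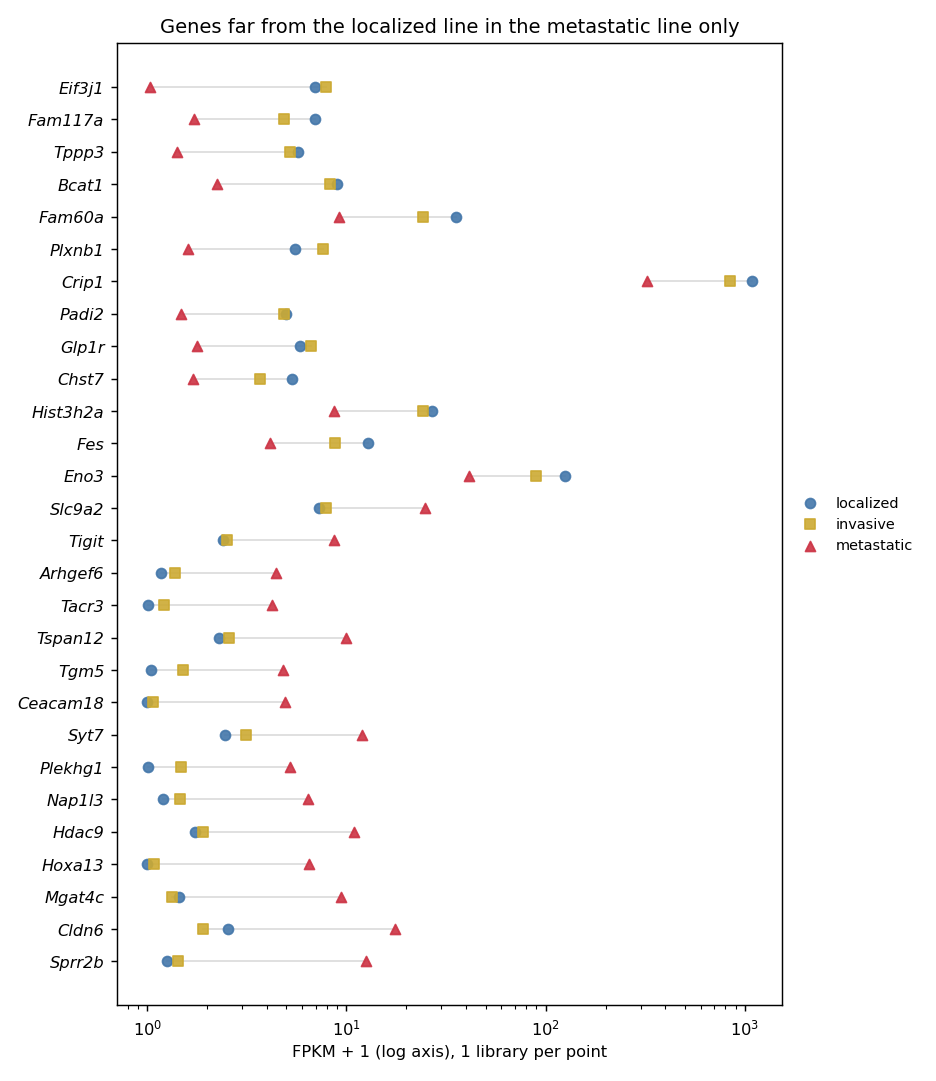
Level of the genes lowest (13 shown; 2 of the 15 are not reported here) and the 15 genes highest in the metastatic relative to the localized library among named genes that the invasive library held within 1.5-fold, as FPKM + 1 on a log axis, 1 library per point. In each row the localized circle and the invasive square are close and the metastatic triangle is apart, to the left for the upper 13 genes and to the right for the lower 15.

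Growth factor pathways were also described by list. Of 35 TGF-beta and BMP genes 9 were past 2-fold lower and 0 higher in the metastatic library, beside 7.29% of all genes lower and 9.08% higher, with a median of -0.21. They included the ligands Bmp4 (20.3, 9.15 and 3.04 FPKM) and Inhba, an activin subunit (15.8, 4.89 and 3.37 FPKM), the co-receptor Tgfbr3 (35.2, 4.08 and 8.54 FPKM) and the target Id3, an inhibitor of bHLH factors (297, 70.2 and 36.97 FPKM). Of 22 Wnt genes 5 were higher and 7 lower, to be read against the same shares of all genes. Wnt7b (1.36, 78.05 and 87.1 FPKM) and Wnt4 (0.666, 9.69 and 8.49 FPKM) were among the higher ligands, and the ligand Wnt10b (13.2, 0.864 and 0.673 FPKM) and the receptor Ror2 (7.01, 0.409 and 0.145 FPKM) were lower. Of 31 growth factor genes 10 were higher and 9 lower, again beside 9.08% and 7.29% of all genes. The fibroblast growth factor receptor Fgfr1 (42.7, 3.79 and 2.09 FPKM) and the ligand Fgf7 (75.9, 0.379 and 1.52 FPKM) were lower, and the ligand Igf2 (0.235, 101 and 50.2 FPKM) was higher. In these lists the invasive value was on the metastatic side of the localized value for each gene named.

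Further genes among the 25 largest differences in each direction belonged to secretion, adhesion and signalling. Sgk1, a serum- and steroid-induced kinase that is also stress-responsive (113, 4.802 and 1.62 FPKM), Htra1, a secreted protease (90.5, 9.05 and 2.398 FPKM), Aqp5, a water channel (182, 6.204 and 5.01 FPKM), and Cspg4, a surface proteoglycan (33.7, 1.08 and 0.012 FPKM), were lower in the metastatic library. Esm1, secreted by endothelium and some tumours, had 37.8 FPKM in the localized library and was listed at 0 in the metastatic one. Higher were Plet1, a surface protein of progenitor cells (4.302, 355 and 336 FPKM), Ppp1r1b, a phosphatase inhibitor (0.956, 137 and 121 FPKM), Myrf, a membrane-bound transcription factor (1.08, 67.4 and 80.1 FPKM), Lgals2, a galectin (2.86, 50.6 and 146 FPKM), and Cdhr5, a cadherin of the brush border (0.078, 9.75 and 56 FPKM). Plet1 and Ppp1r1b were about level in the invasive and metastatic libraries, while Lgals2 and Cdhr5 were highest in the metastatic one. By linear FPKM the cytoskeletal peptide Tmsb4x was among the genes with the largest excess in the metastatic library (1141, 4443 and 5548 FPKM), together with the secreted chaperone Clu (233, 2865 and 1421 FPKM). The matrix genes Spp1 (4444, 3312 and 2196 FPKM) and Fn1 (928, 285 and 171 FPKM) and the IGF-binding protein Igfbp4 (1648, 733 and 503 FPKM) were among those with the largest deficit.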

How the data were processed

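RNA-seq of 3 cell lines was analysed from 1 table of FPKM values per gene deposited by the authors, 1 column a library. Per the submitters' processing notes, the tools were Cufflinks 2.2.1, STAR 2.5.2a and FastQC 0.11.2 with build GRCm38, and no role is given for each. Read layout and strand are not given in the sources used here; reads of a gene and of an overlapping or antisense partner therefore cannot be separated. The lowest value deposited was 0.1 in each column, and 0.1 was subtracted. Left out were 27 of 22784 entries with a number for a name, and 23 short RNA and ribosomal RNA genes, 2 of them past the filter.

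Differences of log2(FPKM + 1) were computed from the deposited FPKM for genes with a mean of at least 1 FPKM, and called at 1 (2-fold). Groups follow the stage label. The members and gene lists were chosen with earlier results of these data known. Named were every stress gene past 2-fold and its upstream factor, ranks 1 to 25 by difference and the 15 largest linear differences in each direction, up to 6 members of each other list, and the 15 genes in each direction that the invasive library held within 1.5-fold of the localized one; part of them is printed, some genes are not reported here, and other list members were added to describe a list. Depth came from whole-fragment steps of FPKM in genes with 1 transcript in GENCODE M21 (at least 2000 bases, 200-base fragments assumed). The depth taken was the value at which the largest share of low values lay within 0.1 of a whole fragment. That largest share was 79.2% to 81.9%, beside 20% for evenly spread values. The median share over the depths tried was 12.1% to 13.2%. Counting intervals are exact binomial (95%). Motifs were searched on both strands of RefSeq promoters (250 bases before to 50 after the start). Alternatives were the pseudocount, the filter, the fold boundary, unsubtracted values, rescaled libraries and short RNAs kept. Scripts ran in Python 3.11.15 with pandas 2.3.3, numpy 2.4.6 and scipy 1.17.1 and were tested on simulated data.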

Additional observations from a re-analysis of the deposited data

Results flagged for a closer look

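Against the localized library, 3 genes were past 2-fold in the metastatic and in the invasive library in opposite directions. These opposite directions were not tested, since each line has 1 library. Egr1 differed by -2.52 in the metastatic and by 1.74 in the invasive library on the log2(FPKM + 1) scale. Cck, the gut hormone cholecystokinin, had 4.28, 0.569 and 13.2 FPKM (localized, invasive, metastatic) and differed by 1.43 in the metastatic and -1.75 in the invasive library. Krt14, a basal keratin, had 1.31, 5.01 and 0.093 FPKM and differed by -1.08 and 1.38.

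A further signal lay in table entries that carry a number in place of a gene name. Of 27 such entries 16 had a mean of at least 1 FPKM, and 2 were past 2-fold between the metastatic and the localized library. Their genes are not named in the table, so they entered no count.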

How the results depend on the processing

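Over 10 alternative settings no difference past 2-fold among the 268 genes recomputed changed its sign. Of 100 recomputed main counts 68 stayed within 1.5 times the value reported. Of 2680 recomputed gene differences, 82 that were past 2-fold as reported fell below the boundary of the alternative setting. Another 19 that were below 2-fold as reported passed that boundary. The boundary was 2-fold except in the 1.5-fold and 3-fold settings. The count of stress genes not shared with the invasive library (18) ranged from 16 to 23 over the 8 alternatives that kept the 2-fold boundary, and 13 of the 18 were among the genes not shared in all of them. With a boundary of 1.5-fold that count was 39, only 5 of the 18 among them, and with 3-fold it was 10, with 3 of the 18. The stricter count (5) was 13 at 1.5-fold, 2 at 3-fold and 3 with a pseudocount of 5. At 1.5-fold the higher and lower counts were 1816 and 1607 (metastatic against localized), 1727 and 1361 (invasive against localized), 400 and 610 (metastatic against invasive), and 100 and 66 for stress genes. At 3-fold they were 584 and 464, 534 and 379, 61 and 51, and 27 and 22. With a pseudocount of 5 they were 631 and 464, 575 and 359, and 62 and 67, and 23 stress genes were lower. With a pseudocount of 0.1, 373 genes were lower in the metastatic than in the invasive library. With a mean of at least 5 FPKM the lower counts were 488 for metastatic and 376 for invasive against localized, and 69 genes were higher in the metastatic than in the invasive library; fewer genes were counted there. No paired analysis was possible because each line has 1 library and the labels give no replicate numbers, and for the same reason no replicate could be left out. At the estimated depths 3 fragments of a transcript of 2000 bases came to 0.036 to 0.041 FPKM, so lower values rest on few fragments.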

Other observations

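Histone genes were listed after their values were seen, so their count is a description. Of 16 counted, 8 were past 2-fold lower and 0 higher in the metastatic against the localized library, beside 7.29% and 9.08% of all genes, and the other 8 were within 2-fold, with a median difference of -0.89, while in the invasive library 1 was lower and the median was -0.09. The linker histone Hist1h1c had 34.9, 53.1 and 11.7 FPKM (localized, invasive, metastatic), H1fx 55.4, 38.8 and 18.5, Hist1h2bc 43.9, 30.7 and 16.3 and Hist3h2a 25.9, 23.1 and 7.63. The replication-independent H3f3a (322, 316 and 303 FPKM) and H2afz (642, 721 and 689.6 FPKM) were within 2-fold, as was H2afy (64.3, 73.6 and 82.4 FPKM), with H2afz and H2afy on the higher side. Many histone genes are near-identical copies, so single values are uncertain.

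Enzymes of drug and lipid metabolism of the gut and liver stood higher in the metastatic library in 13 of 23 cases and lower in 3, beside 9.08% and 7.29% of all genes, with a median of 1.15. Against the localized library, 9 of the 23 were past 2-fold higher and 2 lower in the invasive one, with a median of 0.70. Over all genes those shares were 8.78% and 6.07%. The sulfotransferase Sult1c2 (3.32, 76.6 and 75.6 FPKM) and the retinal dehydrogenase Aldh1a3 (2.59, 74.4 and 84.02 FPKM) were about level in the invasive and metastatic libraries. The glucuronosyltransferase Ugt2b34 (2.29, 5.32 and 20.3 FPKM), the exporter Abcg2 (0.974, 0.241 and 6.63 FPKM) and Sult1d1 (0, 0.886 and 9.11 FPKM) were past 2-fold above the invasive library too. Desmosomal Dsc2 had 0.036, 0.904 and 17.9 FPKM, and Sult1d1 was listed at 0 in the localized library.

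By chromosome, the median difference between the metastatic and the localized library ranged from -0.32 on chromosome 19, where 5.81% of 413 genes were past 2-fold higher, to 0.17 on chromosome 3. On chromosome 16, 16.3% of 349 genes were past 2-fold higher and 4.01% lower. The lower share on chromosome 19 was 10.7%. Over all genes 9.08% were higher and 7.29% lower. Between the metastatic and the invasive library, the medians farthest from 0 were 0.25 on chromosome 5 and -0.26 on chromosome 14. The metastatic medians against the localized library were 0.09 on chromosome 5 and 0.06 on chromosome 14, and the invasive medians were -0.20 and 0.33.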
